A study of Mus musculus with 16 samples.

Results

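Inhibitory receptors of B cells and the phosphatases that they call on were followed as a set of 9 genes in peritoneal B1a cells and in splenic B cells (Bs) of 2 mouse strains. The receptors were Fcgr2b, Pirb, Cd22, Siglecg, Cd72 and Fcrl5, and the phosphatases were Ptpn6, Inpp5d and Ptpn22. They were chosen by gene symbol in the platform annotation, among 18194 named genes. The annotation gave 15 of the 45101 probe sets of the array to 8 of the 9. Fcrl5 had no probe set under its name. Another 3 probe sets were assigned to Pirb together with its activating Pira relatives and were not used. The strains were C57BL/6 (B6) and the congenic line B6.Sle2c1 (Sle2c1), both 5 months old, with 4 arrays for each strain and cell type, which the series text calls biological replicates. Sle2c1 mice carry, on a B6 background, the lupus susceptibility locus Sle2c1 derived from the NZM2410 strain, which holds the cell cycle inhibitor gene Cdkn2c. Per the labels, B1a cells were peritoneal cells left after macrophages had adhered for 2 h in 10% serum, depleted with Thy1.2 and CD3ε antibodies and then selected with a CD5 antibody, to 80% B220int CD5+ cells. Bs cells were CD43- cells of the spleen, over 90% of them B220hi. The strain comparison asks what the locus alters in B cells. The comparison of cell types joins tissue, cell type and isolation method, which cannot be told apart.

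B cells carry inhibitory receptors that hold back signals of the B cell receptor. Most of these receptors have tyrosine motifs in their cytoplasmic tails that are phosphorylated by Src family kinases such as Lyn and then bind the tyrosine phosphatase SHP-1, encoded by Ptpn6, or the lipid phosphatase SHIP1, encoded by Inpp5d. B1a cells are known for natural antibodies, for steady engagement by self antigens and for a damped response when their receptor is crosslinked.

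The deposited values are a score of unstated log base and scaling, and differences are given in its units and never as fold changes. Differences carry their sign, B1a minus Bs between the cell types and Sle2c1 minus B6 between the strains. Values under 0.495 units, the floor, carry no level and were raised to it. Array medians lay between 0.68 and 1.12 units, and arrays correlated at 0.784 to 0.968 within groups. Sle2c1_B1a 4, B6_Bs 1 and B6_Bs 3 lay apart from their groups on the first 2 principal components, and Sle2c1_Bs 3 lay beside B6_Bs 3. The hybridisation control bioB, a bacterial RNA spiked into each hybridisation, read 3.10 to 3.49 units on the B1a arrays and 3.16 to 3.84 on the Bs arrays. Of the Bs arrays only B6_Bs 1, at 3.16, lay within the B1a range. All others read 3.59 to 3.84, so this control was nearly separated by cell type. Cdkn2c itself was lower in Sle2c1, by -0.60 units in B1a (adjusted p = 0.00382) and by -0.89 in Bs (limma; adjusted p = 0.00152), sizes limited by the floor, with Sle2c1 values of 0.495 to 0.88 and 0.495 to 0.6. The labelled cell types matched their markers in part. The mean of 9 B cell markers, which hold Cd22 and Ms4a1, was 2.46 units in B6_B1a and 2.37 in Sle2c1_B1a. In B6_Bs it was 3.02 and in Sle2c1_Bs 3.04. Among the 9, Cr2 and Fcer2a differed most. In B6_B1a against B6_Bs Cr2 read 1.23 against 3.32 units and Fcer2a 0.79 against 2.68. In Sle2c1 Cr2 read 0.899 against 3.44 and Fcer2a 0.636 against 2.76. The next largest difference was that of Cd79b, at 3.42 against 3.74 in B6 and 3.215 against 3.705 in Sle2c1. Of the 9, 6 were lower and 0 higher in B1a in B6, and 7 lower and 0 higher in Sle2c1 (limma, adjusted p under 0.05). Over all probe sets 10.7% and 13.7% were lower. The part of this in the members that were lower in B1a was not tested. The B cell gene Ms4a1 (CD20) averaged 3.75 to 3.98 units in all 4 groups, and Il10, a cytokine of B1a cells, read 2.81 ± 0.0469 in B6_B1a and 2.65 ± 0.0966 in Sle2c1_B1a (SD, n = 4) and lay at the floor on all 8 Bs arrays. Cd5, the gene of the selecting antigen, also lay at the floor on all Bs arrays but read only 1.08 ± 0.304 in B6_B1a. In Sle2c1_B1a it read 0.745 ± 0.342, with 2 of 4 arrays at the floor. The mean of 11 B1a cell markers, which hold Il10, Cd5, Ctla4 and the member Ptpn22, was 1.99 units in B6_B1a and 1.90 in Sle2c1_B1a. In B6_Bs it was 1.13 and in Sle2c1_Bs 1.11. Of the 11, 7 were higher and 0 lower in B6, and 6 higher and 0 lower in Sle2c1. Over all probe sets 9.21% and 11.1% were higher.

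B1a and Bs cells differed in most of these genes, and the direction was shared by both strains. Ptpn22, Fcgr2b and Pirb were higher in B1a cells, and Cd72, Ptpn6 and Cd22 were lower. Siglecg and Inpp5d were lower in Sle2c1 B1a cells as well, and lay in that direction in B6 without passing. In B6, 3 of the 8 measured genes were higher and 3 lower in B1a (limma, Benjamini-Hochberg adjusted p under 0.05 over all 35032 probe sets fitted), where 19.9% of all probe sets passed (9.21% higher and 10.7% lower). In Sle2c1, 3 were higher and 5 lower, where 24.8% of all passed (11.1% higher and 13.7% lower). These shares include dim probe sets. In a fit to the 21888 probe sets above each array's 60th percentile on 4 or more arrays, 7967 passed in B6 and 9004 in Sle2c1, larger shares than over all. The sign of the difference was shared by the strains for 8 of 8 genes, against 76.4% of all probe sets, dim ones included. These 2 comparisons share no array but may not be independent. The deviations of Bs arrays of the same number correlated at 0.106 to 0.596 between the strains. Without Sle2c1_B1a 4, B6_Bs 3 and Sle2c1_Bs 3, 2 genes were higher and 4 lower in B6, and 3 were higher and 4 lower in Sle2c1. The median size of the difference over the 8 genes was 0.459 units in B6 and 0.491 in Sle2c1, beside 0.194 and 0.22 over all probe sets.

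**Figure D1:**
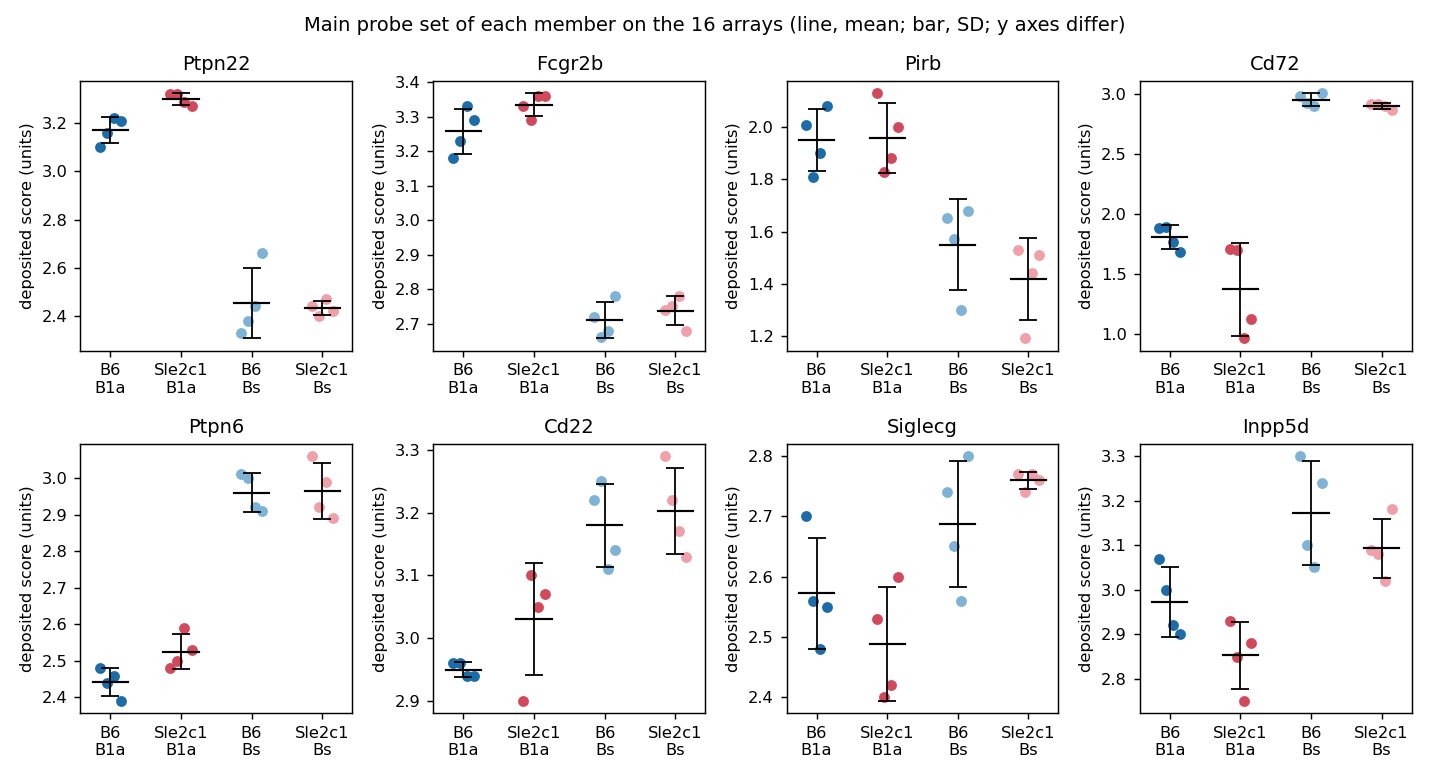
Each panel plots the deposited score (units) of the main probe set of a gene on the 16 arrays, with points for arrays, a line for the group mean and a bar for the SD (n = 4). Ptpn22, Fcgr2b and Pirb are higher on every B1a array than on any Bs array, and Cd72, Ptpn6 and Cd22 are lower on every B1a array than on any Bs array.

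Because genes of the set moved in opposite directions between the cell types, the stretches just before their transcription starts are shown for the 3 that were higher in B1a cells and for the 2 that were clearly lower. All 9 genes matched RefSeq's promoter table (GRCm38.p6). Each line gives the 150 bases before the start, 5′ to 3′ on the gene's strand, and capitals mark matches on either strand to GAGGAA, a core of PU.1 sites, CANNTG, the E-box, or TGTGGT, a core of Runx sites. The octamer ATGCAAAT was also searched. The windows lie at chr3:103859645-103859794 (+) for Ptpn22, chr1:170976072-170976221 (-) for Fcgr2b, chr7:3720383-3720532 (-) for Pirb, chr4:43454627-43454776 (-) for Cd72 and chr6:124738710-124738859 (-) for Ptpn6. For Ptpn22 the table lists another start downstream, and the first is shown.
Ptpn22: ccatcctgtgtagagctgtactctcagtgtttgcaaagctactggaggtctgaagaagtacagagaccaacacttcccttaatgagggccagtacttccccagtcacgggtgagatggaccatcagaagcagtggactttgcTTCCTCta
Fcgr2b: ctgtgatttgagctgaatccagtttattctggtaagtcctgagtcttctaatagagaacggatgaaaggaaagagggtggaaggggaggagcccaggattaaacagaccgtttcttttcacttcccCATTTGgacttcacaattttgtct
Pirb: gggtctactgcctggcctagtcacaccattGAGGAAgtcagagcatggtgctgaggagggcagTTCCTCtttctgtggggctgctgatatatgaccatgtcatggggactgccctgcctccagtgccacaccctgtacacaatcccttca
Cd72: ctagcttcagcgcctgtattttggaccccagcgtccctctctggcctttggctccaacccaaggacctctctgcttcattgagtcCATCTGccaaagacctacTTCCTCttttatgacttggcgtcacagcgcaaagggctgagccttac
Ptpn6: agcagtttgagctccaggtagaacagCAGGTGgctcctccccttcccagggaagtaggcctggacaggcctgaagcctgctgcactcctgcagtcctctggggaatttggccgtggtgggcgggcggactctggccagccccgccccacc
The PU.1 core was found before 4 of the 9 genes, namely Ptpn22, Pirb, Cd72 and Inpp5d, and in 14.5% of all 32851 windows of the same length. It thus lay before genes that were higher and genes that were lower in B1a cells. Pirb had 2 such matches, 82 to 87 and 115 to 120 bases before the start. An E-box match was found before 7 of the 9 genes and in 47.7% of all windows, the Runx core before Fcrl5 and the downstream start of Ptpn22 (8.4% of all windows), and the octamer before 0 of the 9 (0.998%). A match describes letters and is not a measured site.

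Fcgr2b encodes FcγRIIB, the inhibitory receptor for IgG immune complexes, which signals through SHIP1. Its main probe set, the one with the highest mean, 1435477_s_at, read 3.18, 3.23, 3.33 and 3.29 units on the B6_B1a arrays and 3.33, 3.29, 3.36 and 3.36 on the Sle2c1_B1a arrays. On the Bs arrays it read 2.72, 2.66, 2.68 and 2.78 in B6 and 2.74, 2.75, 2.78 and 2.68 in Sle2c1. All 8 B1a arrays thus lay above all 8 Bs arrays, by more than the spread within any group. B1a minus Bs was 0.55 units in B6 (SE 0.0529, 95% confidence interval 0.434 to 0.661, adjusted p = 3.9e-06). In Sle2c1 the difference was 0.60 (95% confidence interval 0.484 to 0.711, adjusted p = 1.26e-06). The other 3 fitted probe sets of Fcgr2b were also higher in B1a cells, by 0.485 to 0.60 units in B6 and by 0.71 to 0.82 in Sle2c1, with adjusted p from 6.11e-07 to 0.0059. The main probe set and 1455332_x_at carry suffixes of probes that can also match other transcripts, whereas 1435476_a_at and 1451941_a_at carry the suffix of probes shared among transcripts of a gene. The fifth probe set, 1447622_at, lay at the floor on 15 of 16 arrays and did not enter the fit; its single reading above it was 0.86 units on Sle2c1_B1a 1.

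Pirb encodes an inhibitory receptor for MHC class I molecules on B cells and myeloid cells. Its probe set, 1424302_at, read 2.01, 1.81, 1.90 and 2.08 units in B6_B1a and 2.13, 1.83, 1.88 and 2.00 in Sle2c1_B1a. The Bs arrays read 1.65, 1.57, 1.30 and 1.68 in B6 and 1.53, 1.19, 1.44 and 1.51 in Sle2c1. The B1a arrays again lay above the Bs arrays in both strains. The difference was 0.40 units in B6 (SE 0.104, adjusted p = 0.0154) and 0.54 in Sle2c1 (adjusted p = 0.00159). The call in B6 ended after median centring of the arrays (adjusted p = 0.0645) and without Sle2c1_B1a 4, B6_Bs 3 and Sle2c1_Bs 3 (adjusted p = 0.0598).

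Macrophages also express Fcgr2b and Pirb, and their markers differed between the groups. The mean of 16 macrophage markers ran from 1.31 to 2.29 units over the B6_B1a arrays and from 1.19 to 1.26 over the B6_Bs arrays. In Sle2c1 the means overlapped, with 1.01 to 1.08 units in B1a and 0.943 to 1.13 in Bs, but single markers went both ways. Of the 16 markers, 10 were higher and 0 lower in B1a cells in B6, and 3 were higher and 4 lower in Sle2c1. Those higher in Sle2c1 B1a cells were Cd14 (2.78 against 0.495 units, all Bs arrays at the floor), Mrc1 (2.32 against 1.43) and Cd68 (1.33 against 0.501). Another 7 of the 16, among them Csf1r, C1qb, Timd4 and Apoe, did not exceed the floor on any Sle2c1_B1a array. The mean of 10 mast cell and eosinophil markers was 1.18 units in B6_B1a and 0.692 in B6_Bs. In Sle2c1_B1a it was 1.02 and in Sle2c1_Bs 0.679. Of these 10, 6 were higher and 1 lower in B1a cells in B6, and 2 higher and 0 lower in Sle2c1. Over all probe sets 9.21% and 11.1% were higher. The part of macrophages, or of mast cells and eosinophils, in the differences of Fcgr2b and Pirb was not tested. Within B6_B1a, array 2 had the lowest macrophage mean (1.31 units) and the lowest Pirb value (1.81), and array 4 the highest of both (2.29 and 2.08). Fcgr2b was instead lowest on array 1 (3.18) and highest on array 3 (3.33). The macrophage mean was 1.81 units in B6_B1a and 1.04 in Sle2c1_B1a, where Pirb averaged 1.95 and 1.96 and Fcgr2b 3.26 and 3.34. In these bulk preparations fewer cells of a type and less RNA per cell cannot be told apart.

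**Figure D2:**
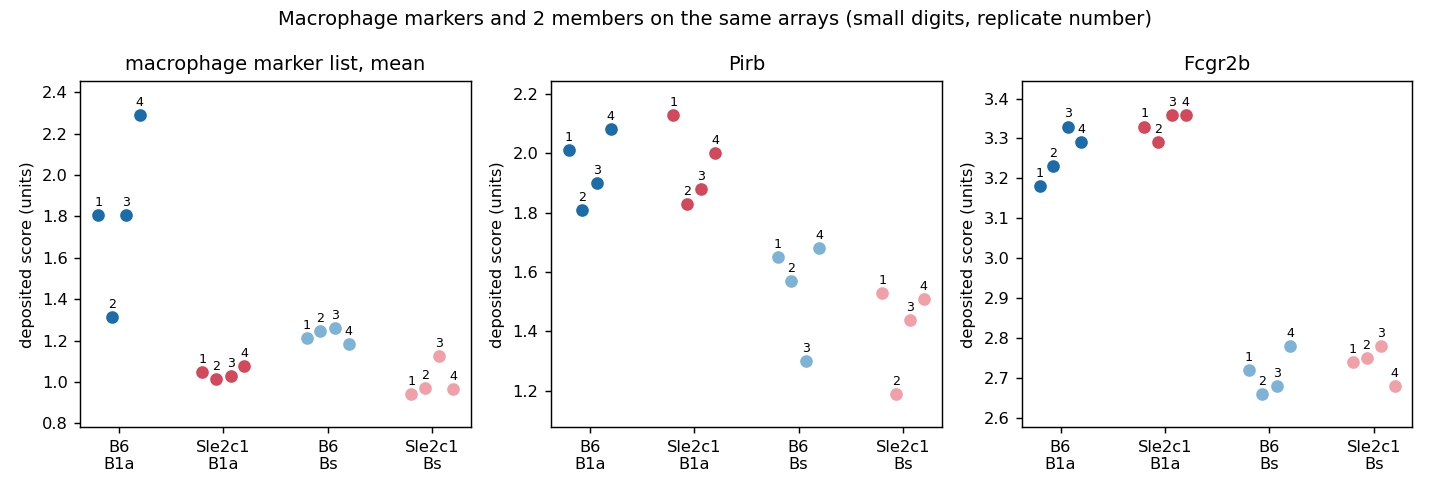
The panels plot, in units of the deposited score, the mean of 16 macrophage markers, Pirb and Fcgr2b on the same 16 arrays, with small digits for the replicate number. The macrophage marker mean is highest on the B6_B1a arrays (1.31 to 2.29), whereas Pirb and Fcgr2b are higher on the B1a arrays of both strains than on the Bs arrays.

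Among the receptors that were lower in B1a cells, Cd72 differed most. Cd72 is a lectin-like inhibitory receptor that binds Sema4d and recruits SHP-1. Its probe set, 1426112_a_at, read 1.88, 1.89, 1.77 and 1.68 units in B6_B1a against 2.99, 2.93, 2.90 and 3.01 in B6_Bs. In Sle2c1 it read 1.71, 1.70, 0.96 and 1.12 in B1a against 2.92, 2.92, 2.90 and 2.87 in Bs. No B1a array exceeded 1.89 units and no Bs array lay under 2.87, and the 4 Sle2c1_B1a arrays fell into a higher and a lower pair. B1a minus Bs was -1.15 units in B6 (SE 0.139, 95% confidence interval -1.45 to -0.856, adjusted p = 3.56e-05) and -1.53 in Sle2c1 (95% confidence interval -1.83 to -1.23, adjusted p = 1.63e-06). In B6 only 1.89% of all probe sets differed by more in size, and in Sle2c1 0.871%.

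Cd22 and Siglecg encode sialic acid binding receptors, of which Siglecg is known above all as a restraint on calcium signals in B1a cells. The main probe set of Cd22, 1419768_at, read 2.96, 2.96, 2.94 and 2.94 units in B6_B1a and 2.90, 3.10, 3.05 and 3.07 in Sle2c1_B1a. On the Bs arrays it read 3.22, 3.25, 3.11 and 3.14 in B6 and 3.29, 3.22, 3.17 and 3.13 in Sle2c1. Its groups did not overlap between cell types in either strain, with highest B1a values of 2.96 and 3.10 and lowest Bs values of 3.11 and 3.13. The difference was -0.23 in B6 (adjusted p = 0.0148) and -0.17 in Sle2c1 (adjusted p = 0.0478). Many probe sets differed by more, 43.7% of all in B6 and 58.7% in Sle2c1. The second Cd22 probe set, 1419769_at, differed by -0.14 and -0.16 without passing (adjusted p = 0.22 and 0.136), and both calls ended after median centring (adjusted p = 0.257 and 0.253). The call in Sle2c1 was also lost when any 1 of 12 of the 16 arrays was left out.

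Siglecg (1435955_at) read 2.70, 2.56, 2.48 and 2.55 units in B6_B1a and 2.74, 2.65, 2.56 and 2.80 in B6_Bs. These groups overlapped and differed by -0.12 (95% confidence interval -0.263 to 0.0329, adjusted p = 0.267). In Sle2c1 it read 2.53, 2.40, 2.42 and 2.60 in B1a and 2.77, 2.74, 2.77 and 2.76 in Bs. There the groups did not overlap, and Siglecg was lower in B1a by -0.27 (adjusted p = 0.0102, and 0.101 after median centring). When the arrays were shifted to equal bioB signal, the median of all probe sets moved from -0.0275 to 0.19 units in B6 and from -0.0263 to 0.185 in Sle2c1. Relative to 0 the called differences then turned, without passing, to 0.0742 and 0.135 for Cd22 and to 0.0346 for Siglecg in Sle2c1, all of which lay below those medians.

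The 3 phosphatases did not move as a block. Ptpn6 (1460188_at), whose product SHP-1 serves Cd22, Cd72, Pirb and Siglecg, read 2.48, 2.44, 2.46 and 2.39 units in B6_B1a and 2.48, 2.50, 2.59 and 2.53 in Sle2c1_B1a. In Bs cells it read 3.01, 3.00, 2.92 and 2.91 in B6 and 3.06, 2.92, 2.99 and 2.89 in Sle2c1. No B1a array reached the level of a Bs array. Ptpn6 was lower in B1a by -0.52 units in B6 (SE 0.0551, adjusted p = 1.1e-05) and by -0.44 in Sle2c1 (adjusted p = 4.09e-05), and its second probe set by -0.52 and -0.46. With arrays shifted to equal bioB signal neither difference of Ptpn6 passed (-0.21 and -0.13, adjusted p = 0.323 and 0.565).

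Inpp5d (1418110_a_at), which encodes the SHIP1 lipid phosphatase that Fcgr2b engages, read 3.07, 3.00, 2.92 and 2.90 units in B6_B1a and 2.93, 2.85, 2.75 and 2.88 in Sle2c1_B1a. In Bs cells it read 3.30, 3.10, 3.05 and 3.24 in B6 and 3.09, 3.08, 3.02 and 3.18 in Sle2c1. The B6 groups overlapped by a single pair of arrays, and the difference of -0.20 did not pass (adjusted p = 0.0587). It did pass without B6_Bs 3 (adjusted p = 0.0359) and under 9 of 17 other settings. Among these were no filter (adjusted p = 0.045), array weights (0.0255) and the replicate block over all arrays (0.0329). Another of the 9 only relaxed the threshold to 0.10 and left the adjusted p at 0.0587. In Sle2c1 the groups did not overlap and Inpp5d was lower in B1a by -0.24 (adjusted p = 0.0221). That call ended after median centring (0.177) and without Sle2c1_B1a 3 (0.0631) or Sle2c1_Bs 4 (adjusted p = 0.0596), and the difference turned to 0.0671 with equal bioB signal, below the median of all probe sets under that shift (0.185). The dim second probe set of Inpp5d, at means of 1.16 to 1.35 units, passed in neither strain.

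Ptpn22 went the other way. It encodes the phosphatase PEP, which acts with the kinase Csk on Src family kinases, and its human counterpart carries a known autoimmunity variant. Its probe set, 1417995_at, read 3.10, 3.16, 3.22 and 3.21 units in B6_B1a and 3.32, 3.32, 3.29 and 3.27 in Sle2c1_B1a, against 2.33, 2.38, 2.44 and 2.66 in B6_Bs and 2.44, 2.40, 2.47 and 2.42 in Sle2c1_Bs. All B1a arrays lay at 3.10 or higher and all Bs arrays at 2.66 or lower. B1a minus Bs was 0.72 units in B6 (SE 0.0667, 95% confidence interval 0.577 to 0.863, adjusted p = 2.54e-06) and 0.87 in Sle2c1 (95% confidence interval 0.724 to 1.01, adjusted p = 2.86e-07). T cells also express Ptpn22, and the mean of 8 T cell markers ran from 1.42 to 1.62 units in B6_B1a and from 1.03 to 1.26 in B6_Bs. The Sle2c1 arrays gave 1.09 to 1.55 units for B1a and 0.978 to 1.13 for Bs. Ptpn22 is itself among the 11 B1a cell markers, and the part of T cells in its difference was not tested. Csk, its partner, did not pass in either strain (-0.04 and -0.48, adjusted p = 0.938 and 0.157).

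**Figure D3:**
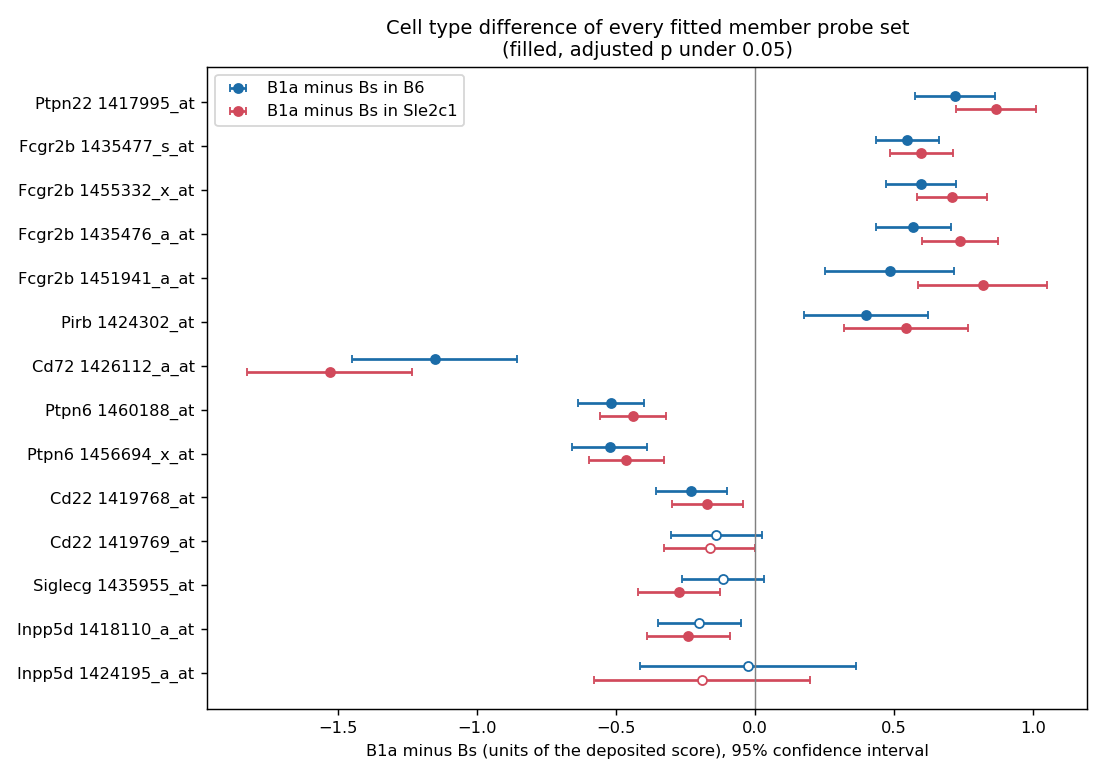
Points give B1a minus Bs in units of the deposited score for each of the 14 member probe sets fitted, with 95% confidence intervals, for B6 and Sle2c1, filled where the adjusted p was under 0.05. Probe sets of Ptpn22, Fcgr2b and Pirb lie to the right of 0 in both strains, those of Cd72 and Ptpn6 to the left, and those of Cd22, Siglecg and Inpp5d close to 0.

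Over all 14 fitted probe sets of these genes, 6 were higher and 4 lower in B1a cells in B6, and 6 higher and 6 lower in Sle2c1. For no gene did probe sets pass in opposite directions. The arrays of the cell types were fully separated for 9 of the 14 in B6, as they were for 22.1% of all probe sets, and for 12 of the 14 in Sle2c1 (24.7% of all). For each of the 8 main probe sets both B1a means lay on the same side of both Bs means, so that neighbours in the order of the 4 means were mostly the strains of a cell type, and these were not separated by the test for any gene.

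Between the strains, no member passed the test in either cell type. In B1a cells 0 of 8 genes passed (limma; 1 at an unadjusted p under 0.05), where 3.51% of all probe sets passed. In Bs cells 0 of 8 passed (limma; 0 at an unadjusted p under 0.05), where 0.131% of all probe sets did. The deviations of Bs arrays of the same number correlated at 0.106 to 0.596. With replicate number as a block in a fit to these 8 arrays, 0 of the 8 genes passed as well (limma, adjusted p 0.669 to 0.992). Over all probe sets 1 call was then made in place of 46. The median difference of Sle2c1 minus B6 over the 8 genes was 0.0438 units in B1a and -0.0075 in Bs, beside 0.015 and 0.01 over all probe sets. The difference of the strain effects between cell types passed for 0 of 8 genes too (limma; 0 at an unadjusted p under 0.05, adjusted p 0.718 to 0.984), where 0.462% of all probe sets passed. An absent call does not show equal levels, and the intervals give what these arrays leave possible under the deposited scaling.

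In Bs cells the intervals were narrow for most genes. Sle2c1 minus B6 was 0.0275 for Fcgr2b (95% confidence interval -0.0858 to 0.141), 0.0225 for Cd22 (-0.105 to 0.15), 0.005 for Ptpn6 (-0.113 to 0.123) and -0.02 for Ptpn22 (-0.163 to 0.123). Over the other settings tried these differences fell as low as -0.128, -0.133, -0.151 and -0.176 in that order, each below its interval. With equal bioB signal the median of all probe sets in this comparison itself moved from 0.01 to -0.103. Pirb (-0.13, interval -0.356 to 0.0913) and Cd72 (-0.055, interval -0.352 to 0.242) were less well bounded. For Cd72, Ptpn22, Fcgr2b, Ptpn6, Pirb and Cd22 the whole interval was smaller in size than the gene's difference between cell types in both strains. For Siglecg and Inpp5d this held against the difference in Sle2c1 only. Inpp5d (-0.08) and Siglecg (0.0725) did not pass either, and the strains' Bs arrays overlapped for all 8 genes, where 2.34% of all probe sets were separated.

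In B1a cells the largest strain difference was that of Cd72. It averaged 1.81 ± 0.0995 units in B6_B1a and 1.37 ± 0.389 in Sle2c1_B1a, and the groups overlapped because Sle2c1 arrays 1 and 2, at 1.71 and 1.70, lay within the B6 range of 1.68 to 1.89. The difference of -0.43 (95% confidence interval -0.729 to -0.136) did not pass (adjusted p = 0.112). It passed without Sle2c1_B1a 1 (-0.55, adjusted p = 0.0307) and without Sle2c1_B1a 2 (-0.54, adjusted p = 0.0428), and with any other single array left out its adjusted p did not fall under 0.05. Cd72 lies on chromosome 4 as does Cdkn2c, with 406 protein-coding genes between them in RefSeq's order (GRCm38.p6). Whether it falls in the congenic segment is not given in the sources used here. The mean of 9 B cell markers, which hold Cd22, Cr2 and Fcer2a, on the Sle2c1_B1a arrays was 2.46, 2.31, 2.29 and 2.42 units. Array 3, the lowest in Cd72, was also the lowest here. Array 4, low in Cd72 at 1.12, read 2.42, whereas array 2, at 1.70 in Cd72, read 2.31. The part of the B cell marker level in the low values of Cd72 was not tested.

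Ptpn22 was the single gene whose main probe set did not overlap between the strains in B1a cells, with 3.10 to 3.22 units in B6 and 3.27 to 3.32 in Sle2c1. Such separation was seen for 8.36% of all probe sets in this comparison. The difference of 0.13 (95% confidence interval -0.0155 to 0.271) did not pass (adjusted p = 0.349). Another probe set of Fcgr2b, 1451941_a_at, did not overlap either, at 2.08 to 2.47 in B6 and 2.54 to 2.59 in Sle2c1 (difference 0.263, adjusted p = 0.228). The other 3 fitted Fcgr2b probe sets differed by 0.07 to 0.108 with overlapping groups. Siglecg (-0.085) and Inpp5d (-0.12) lay lower in Sle2c1 B1a cells, and Cd22 (0.08), Ptpn6 (0.0825) and Pirb (0.01) lay higher, with adjusted p from 0.405 to 0.977.

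**Figure D4:**
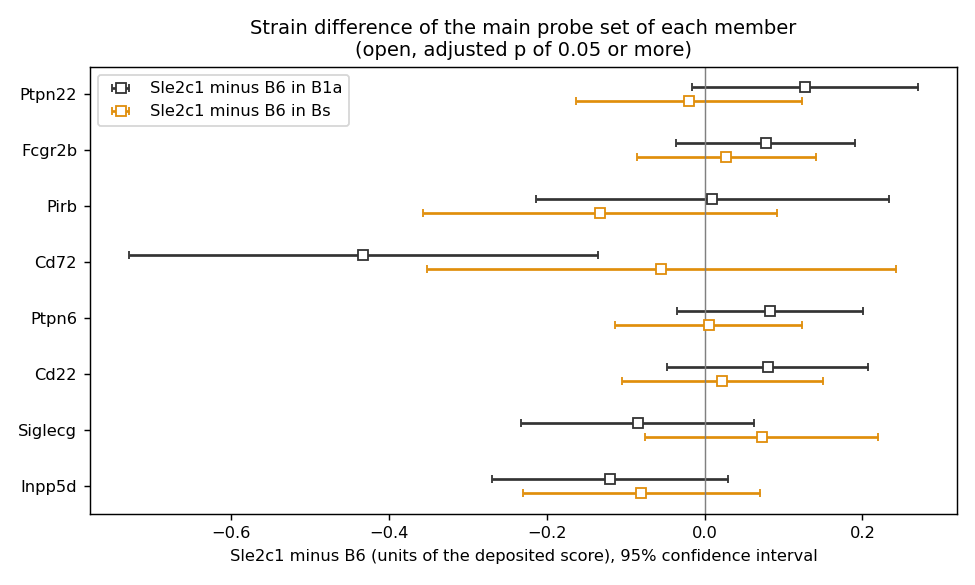
Squares give Sle2c1 minus B6 in units of the deposited score for the main probe set of each gene, with 95% confidence intervals, in B1a and in Bs cells. All squares are open, since 0 of 8 genes passed in either cell type, and Cd72 in B1a cells lies farthest from 0 at -0.43.

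The wider network around these receptors was described from lists of genes, with 1 main probe set for each. The shares of all probe sets set beside these lists include dim ones. In the fit to the 21888 brighter probe sets, 7967 passed between cell types in B6 and 9004 in Sle2c1, larger shares. Of 21 other inhibitory receptors and relatives, 5 were higher and 5 lower in B1a cells in B6, and 5 higher and 6 lower in Sle2c1, and 0 passed between the strains in either cell type (limma). Between the cell types 47.6% and 52.4% of the list thus passed, beside 19.9% and 24.8% of all probe sets. Between the strains 3.51% of all probe sets passed in B1a and 0.131% in Bs. The median over the list was -0.129 and 0.025 units, beside -0.0275 and -0.0263 over all probe sets. Ctla4, a checkpoint receptor better known from T cells, was higher by 1.78 in B6 and 1.76 in Sle2c1 (adjusted p = 6.66e-07 and 6.18e-07), and 2 of 4 B6_Bs arrays lay at the floor. The part of T cells in this was not tested. Cd300lf, which binds ceramide and phosphatidylserine, was higher by 1.17 and 1.36 (adjusted p = 1.66e-05 and 2.96e-06). Fcrl1, an Fc receptor-like protein of B cells that is held to be activating, was lower by -0.74 and -0.80 (adjusted p = 2.11e-06 and 7.64e-07). The attenuator Btla was lower by -0.43 and -0.51 (adjusted p = 6.02e-05 and 1.06e-05), a call lost with equal bioB signal, under which the list had 8 higher and 1 lower in B6 and 6 higher and 3 lower in Sle2c1. Cd5 was higher in B1a by at least 0.58 in B6 (adjusted p = 0.017), a lower bound because all B6_Bs arrays lay at the floor, and differed by 0.25 in Sle2c1 without passing (adjusted p = 0.257).

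Genes that act with or beside the receptors split as well. Of 28 effectors and adaptors, 7 were higher and 6 lower in B6, 5 higher and 7 lower in Sle2c1, and 0 passed between the strains (limma). Between the cell types 46.4% and 42.9% of the list passed, beside 19.9% and 24.8% of all probe sets. In Sle2c1 the share of the list was close to that of the 21888 brighter probe sets, of which 9004 passed. Between the strains 3.51% of all passed in B1a and 0.131% in Bs. Ubash3b (Sts-1), a phosphatase that acts on Syk, was higher in B1a cells by 1.06 and 0.853 units, and Ptpn1 by 1.08 and 1.03. Ptpn12, a relative of Ptpn22, was higher by 0.388 and 0.55. Pag1, the membrane adaptor that holds Csk, was lower by -0.65 and -0.80. The adjusted p of these calls ran up to 0.000429. With equal bioB signal the call of Pag1 in B6 was lost, and 0 of the 28 were lower in B6. Ptpn11 (SHP-2) differed by 0.0775 and 0.06 and Inppl1 (SHIP2) by 0.29 and 0.28 without passing (adjusted p 0.245 to 0.351).

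On the activating side of the receptor more genes were lower than higher in B1a cells, a balance that turned with equal bioB signal (4 higher and 2 lower in B6, 5 and 3 in Sle2c1). The list medians were then 0.149 and 0.0921, still below the medians of all probe sets, 0.19 and 0.185. Of 22 genes, 11 were lower and 3 higher in B6, and 13 lower and 4 higher in Sle2c1, with medians of -0.155 and -0.215 units. That is 63.6% and 77.3% of the list, beside 19.9% and 24.8% of all probe sets. Cr2 (CD21), the complement receptor that lowers the threshold of the B cell receptor, was lower by -2.09 and -2.54 (adjusted p = 9.83e-08 and 1.02e-08), and Rasgrp3 by -1.40 and -2.23. The floor limits the sizes in Sle2c1, where 1 of 4 B1a arrays lay at it for Cr2 and 2 of 4 for Rasgrp3. The adaptor Blnk was lower by -0.71 and -0.76, and Syk was higher by 0.43 and 0.29 (adjusted p = 0.000273 and 0.00402). Cd79a, a chain of the receptor itself, differed by -0.12 in B6 (adjusted p = 0.135) and was lower by -0.19 in Sle2c1 (adjusted p = 0.0243). After median centring 4 were lower in B6 and 7 in Sle2c1, and the calls of Syk and Cd79a in Sle2c1 were lost. Between the strains Rasgrp3 was lower in Sle2c1 B1a cells by -0.80 (adjusted p = 0.0102), a size the floor limits too, and the single call of this list between the strains.

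Ligands were covered by further lists. Of 17 genes that make, carry or trim sialic acids, the ligands of Cd22 and Siglecg, 0 were higher and 2 lower in B6, and 0 higher and 3 lower in Sle2c1 (11.8% and 17.6% of the list, beside 19.9% and 24.8% of all probe sets). St6gal1, which makes the preferred Cd22 ligand, differed by -0.18 in B6 (adjusted p = 0.0925) and was lower by -0.26 in Sle2c1 (adjusted p = 0.0167, and 0.0911 after median centring). The sialidase Neu1 was lower in Sle2c1 than in B6 B1a cells by -0.75 (adjusted p = 0.0141), from 1.28 ± 0.237 to 0.531 ± 0.0725 units, with 3 of 4 Sle2c1_B1a arrays at the floor. Of 4 genes for ligands of Cd72 and Pirb, B2m was lower in B1a cells by -0.22 and -0.21 (adjusted p = 0.00882 and 0.00864), calls lost with each other scaling tried. Among 8 activating Fc receptors and partners, 0 were higher and 3 lower in B6 and 0 higher and 2 lower in Sle2c1 (limma). That is 37.5% and 25% of the list, beside 19.9% and 24.8% of all probe sets. With equal bioB signal 4 were higher in Sle2c1. Fcer2a (CD23) was lower by -1.89 and -2.13, sizes that the floor limits, since 2 of 4 B6_B1a and 3 of 4 Sle2c1_B1a arrays lay at it. Fcgr3, the activating counterpart of Fcgr2b with a closely related outer part, differed by 0.045 in B6 and 0.158 in Sle2c1 (adjusted p = 0.889 and 0.523), and its signal chain Fcer1g by -0.06 and 0.125 (adjusted p = 0.666 and 0.298).

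**Figure D5:**
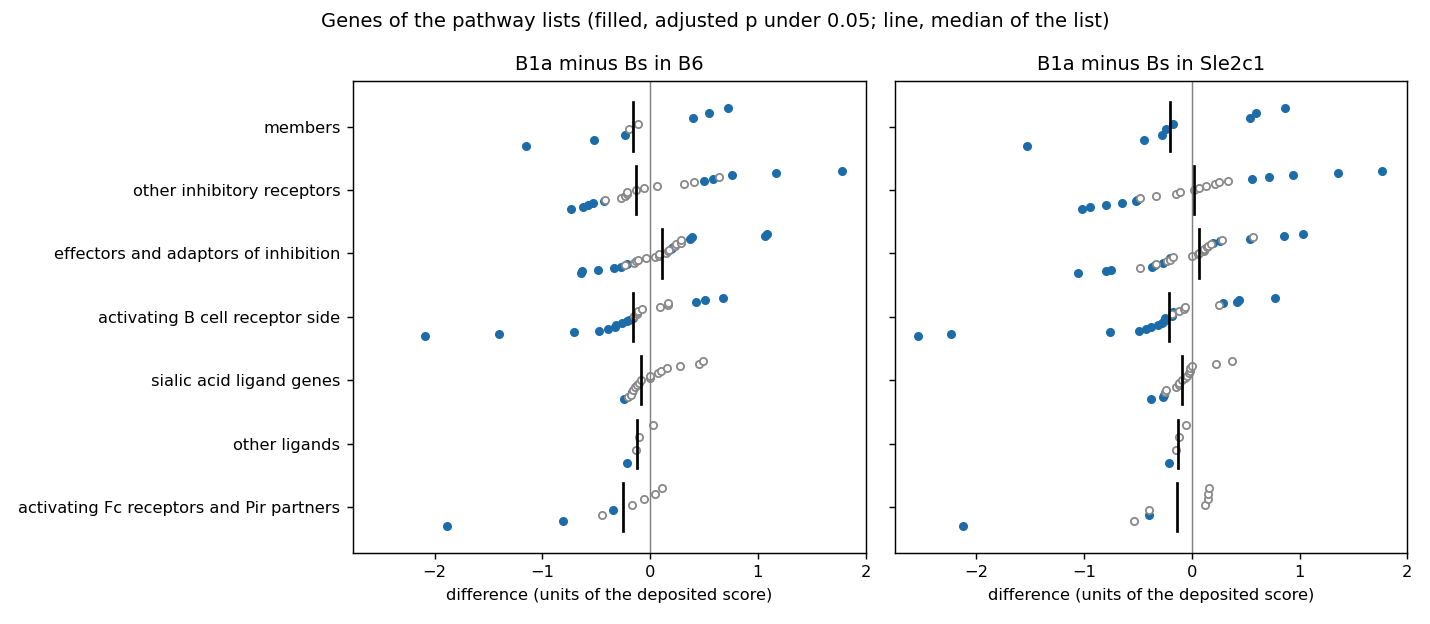
Each point is B1a minus Bs of 1 gene in units of the deposited score, by list, in B6 on the left and in Sle2c1 on the right, filled where the adjusted p was under 0.05, with a line at the median of the list. The members spread to both sides of 0 as the other inhibitory receptors do, and the activating side has its median at -0.155 and -0.215.

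The named genes most like each member were found by the root mean square difference over the 16 arrays after centring, among 13893 genes. For Ptpn22 these were Sh3rf1, Slc35f5 and Csf2rb at 0.0849 to 0.0894 units, against a spread of Ptpn22 about its own mean of 0.405. For Fcgr2b they were Gramd4, Pcmtd1 and Psmd14 at 0.0526 to 0.0635 units, against 0.291. Those nearest to Cd72 were Chchd10, Rgs2 and Akap12 at 0.152 to 0.177 units, against 0.71. Those nearest to Ptpn6 were Fh1, Stap1 and Ifi209 at 0.0517 to 0.0614 units, against 0.246, and those nearest to Pirb were Klf9, Ccdc90b and Mtmr10 at 0.105 to 0.109 units, against 0.272. Cd22 (AW549877, Fkbp3 and Fam3c), Siglecg (Ago1, Chaserr and Taz) and Inpp5d (Pbx2, Tbc1d1 and Ip6k1) varied by only 0.119 to 0.143 units in all, so that likeness says little for them.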

How the data were processed

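RNA of 16 samples, 4 for each strain and cell type, was measured on Affymetrix mouse arrays after amplification and biotin labelling, per the labels. The authors deposited 1 table of values, a score whose log base, centring and scaling are not given in the sources used here. No count underlies it, and the number of arrays limits the precision. Each array's 40th percentile was taken, and values under the median of these (0.495) were raised to it. A probe set entered the fit if it exceeded the percentile of the array on 4 or more arrays (35032 did, with 64 controls left out). Gene symbols came from the platform annotation, updated by Entrez identifier through RefSeq's GRCm38.p6 table (99.4% of single-gene probe sets matched). A gene's main probe set has the highest mean. The 4 group means were fitted over 16 arrays with limma 3.58.1 in R 4.3.3, with two-sided tests, p-values adjusted by Benjamini-Hochberg across the fitted probe sets and a threshold of 0.05. The fit was tested on simulated data.

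The members, the lists and the alternatives were chosen with earlier results of these data known. Named from the lists were genes with the smallest adjusted p (up to 4 for each list and comparison) and genes known to act directly with a member. Lyn was on the lists and is not analysed here. Arrays of the same replicate number were checked for pairing by the correlation of their deviations from group means. For B6_Bs and Sle2c1_Bs all 4 pairs exceeded 0.1 (0.106 to 0.596), so those arrays were treated as possibly paired. B6_Bs 1 and B6_Bs 2 correlated more with a Sle2c1_Bs array of another number, and no label states what a number means. The fit reported has no block, and the blocked value stands beside the strain comparison in Bs. For each other couple of groups at most 1 of 4 pairs exceeded 0.1.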

Additional observations from a re-analysis of the deposited data

Results flagged for a closer look

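Of 56 sets of 4 arrays (14 member probe sets in 4 groups), 2 held an array far from its fellows, where chance marks about 1 set in 20. Fcgr2b by 1435476_a_at read 2.40 units on Sle2c1_Bs 2 and at most 2.30 on the other 3 arrays of the group. Fcgr2b by 1451941_a_at read 2.08 units on B6_Bs 3 and at most 1.76 on the other 3. Neither lay on the main probe set of the gene, and the cause was not tested.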

How the results depend on the processing

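Ptpn22, Fcgr2b and Cd72 passed between B1a and Bs cells in both strains, in the same direction, under each of 17 other settings. They also passed without any 1 of the 16 arrays. Of the 17, 1 only relaxed the threshold to an adjusted p under 0.10, which cannot end a call. Of all 1320 repeats of a gene's test, 1273 kept their side of the threshold, 31 lost the call, 12 gained it and 4 turned the sign of a call. Of the 1273, 40 turned the sign of a difference that passed under neither setting. The 4 came from shifting arrays to equal bioB signal, added after the data were seen, which gave 0.0742 for Cd22 in B6 and 0.135 for Cd22, 0.0346 for Siglecg and 0.0671 for Inpp5d in Sle2c1. That shift left 4 genes called in Sle2c1 in place of 8 and turned the split of all calls in B6 from 3226 higher and 3758 lower to 5662 and 1471, and in Sle2c1 from 3875 and 4801 to 5790 and 1226. Median centring left 5 genes called in Sle2c1. Counting every probe set gave 10 calls in B6 in place of 6 genes. Cd22 in Sle2c1 lost its call without any 1 of 12 arrays (adjusted p up to 0.133), and in B6 without B6_Bs 2 (0.0526). Without single arrays, 0 to 1 genes passed between strains in B1a.

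With replicate number as a block and only Bs arrays fitted, also added later, 0 of 8 genes passed between the strains (adjusted p 0.669 to 0.992), and 1 of all probe sets did. With the block over all arrays, 7 genes passed between cell types in B6 and 7 in Sle2c1. Over all probe sets, the calls between strains ranged from 630 to 2112 in B1a (1231 as reported) and from 1 to 466 in Bs (46), those of their difference from 19 to 454 (162), and those between cell types from 4391 to 14518 in B6 (6984) and 5349 to 11533 in Sle2c1 (8676). In those ranges 2112 and 11533 were counted at an adjusted p under 0.10 in place of 0.05. The 4391 and 5349 came from a fit to 22727 rows, with the probe sets of a gene averaged, in place of 35032 probe sets. The unknown scale of the score and the number of arrays limit small differences such as those of Cd22, Siglecg and Inpp5d.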
